A study of Mus musculus with 2 samples.

Results

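Mural cells, the pericytes and vascular smooth muscle cells that wrap the endothelial tube, were picked from the rib repair callus of adult mice by their transcripts. A cell was taken when it had at least 200 detected genes, under 10% of its unique molecular identifiers (UMIs, which count captured RNA molecules) from mitochondrially encoded genes, 0 UMIs of *Ptprc*, *Pecam1*, *Cdh5* and *Myog*, and at least 5 UMIs summed over *Rgs5*, *Abcc9*, *Kcnj8* and *Higd1b*. This rule chose 138 of the 19564 cells that passed the filters on genes and mitochondrial UMIs, with 70 of 10057 in the control library and 68 of 9507 in the *Smo* cKO library. Control mice were Sox9:CreER;R26:tdT;Smof/+ and *Smo* cKO mice were Sox9:CreER;R26:tdT;Smof/f, so that both groups carried CreER, the tdTomato reporter and at least 1 floxed *Smo* allele. All mice were 8 to 12 weeks old, received 3 tamoxifen injections from day -7 to day -5, and had a 3 mm segment of rib resected, with calluses taken at 4 days post injury (dpi). Calluses of 3 animals were pooled for 1 10x Chromium library per genotype, so animal, library and genotype cannot be told apart and no test between genotypes was possible. CreER is driven by *Sox9* regulatory sequence, and the libraries do not show which mural cells had recombined the floxed allele.

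Pericytes sit within the basement membrane of capillaries and venules, while smooth muscle cells form the contractile coat of arterioles and larger vessels. Both are recruited and held by endothelial PDGF-B acting on the receptor PDGFRB, and Jagged ligands on the endothelium signal to NOTCH3 on the mural cell. In healing tissue these cells accompany the new capillaries, deposit basement membrane with the endothelium and set vessel tone through ATP-sensitive potassium channels, nitric oxide and endothelin.

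The mural share of the filtered cells was 0.696% (95% Clopper-Pearson interval 0.543% to 0.879%) in control and 0.715% (0.556% to 0.906%) in *Smo* cKO, and these intervals overlapped almost entirely. With a minimum of 10 marker UMIs the order turned, at 0.527% (0.395% to 0.689%) and 0.484% (0.354% to 0.645%), again with overlapping intervals. Among cells with at most 2000 genes, the upper limit that the study used, the shares were 0.568% (0.364% to 0.844%) and 0.233% (0.107% to 0.442%), from 24 and 9 mural cells. Among cells with 0 UMIs of the 4 excluded genes, mural cells made up 0.880% in the control library (70 of 7952) and 1.04% in the *Smo* cKO library (68 of 6526). All intervals cover counting error only, not the spread between animals. Those of levels and ratios given below treat the pooled UMIs as independent, so they also leave out the spread between cells. A further 15 control and 31 *Smo* cKO cells had enough marker UMIs but carried an excluded gene, most often *Myog*, which was found in 8 and 19 of them. *Pecam1* was found in 2 of the removed control cells and 9 of the removed *Smo* cKO cells. The median mural cell held 10184.5 UMIs in control (529 to 38449) and 10798.5 in *Smo* cKO (1467 to 51922), and together the cells contributed 841695 and 1008795 UMIs. The median number of detected genes was 2769.5 and 2843. A total of 613 barcodes occurred in both libraries, among them those of 1 control and 7 *Smo* cKO mural cells, and no barcode was a mural cell in both.

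The 4 markers that defined the gate lie on 3 chromosomes. *Rgs5*, a regulator of G-protein signaling, is at chr1:169655501-169695813 on the plus strand of GRCm38. *Abcc9* and *Kcnj8*, the sulfonylurea receptor SUR2 and the pore Kir6.1 of the vascular ATP-sensitive potassium channel, are neighbors on the minus strand at chr6:142587862-142702315 and chr6:142564837-142571614. *Higd1b*, of the hypoxia-inducible gene domain family, is at chr11:102835849-102838040 on the plus strand. Summed marker UMIs per cell had a median of 19.5 in control (5 to 110) and 22.5 in *Smo* cKO (5 to 150). These values chose the cells and are given as a description. All 4 markers were detected in 19 control and 23 *Smo* cKO cells, while 12 and 14 cells passed with 0 *Rgs5*. Just inside the threshold, 11 control and 9 *Smo* cKO cells held exactly 5 marker UMIs. Just outside it, 11 and 21 cells held 4. The gated cells held 64.2% of all *Rgs5* UMIs of the filtered control cells and 61.0% of those in *Smo* cKO, but 18.5% and 22.6% of *Abcc9*, most of whose UMIs therefore lay in cells outside the gate.

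**Figure D1:**
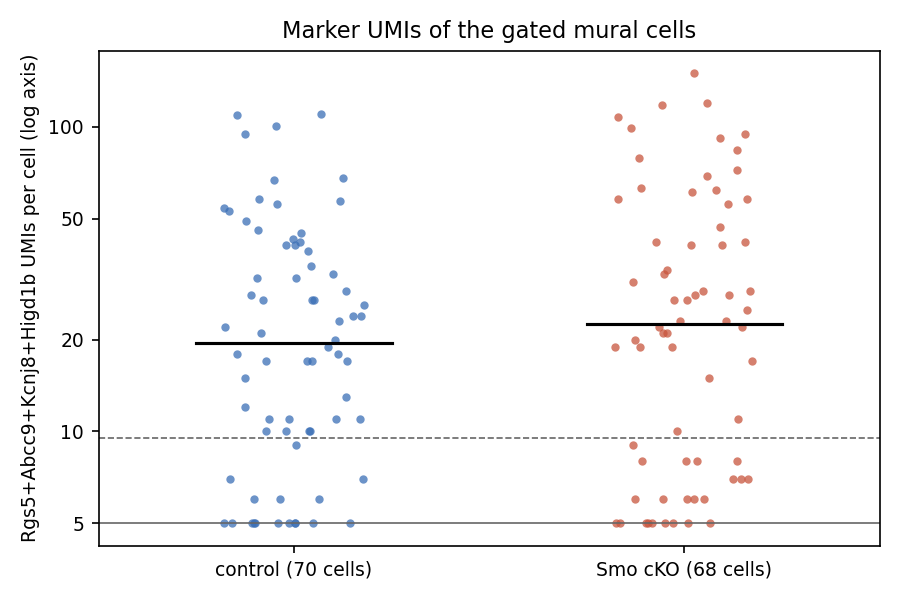
Summed UMIs of Rgs5, Abcc9, Kcnj8 and Higd1b in each of the 70 control and 68 Smo cKO mural cells, on a log axis. Each point is 1 cell, the black bars are the medians of 19.5 and 22.5, the solid line is the minimum of 5 UMIs, and the dashed line separates cells with 5 to 9 UMIs from those with 10 or more.

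As a pool, the cells with 10 or more marker UMIs carried mural genes outside the rule, while those nearer the threshold carried less of them, and neither set was uniform. *Notch3*, the mural Notch receptor at chr17:32120820-32166852 on the minus strand, played no part in the rule. *Notch3* was detected in most cells with 10 or more marker UMIs, 39 of 53 in control (73.6%) and 40 of 46 in *Smo* cKO (87.0%), at median depths of 10583 and 12009.5 UMIs. In cells with 5 to 9 marker UMIs it was detected in 2 of 17 (11.8%, 1.46% to 36.4%) and 5 of 22 (22.7%, 7.82% to 45.4%), at median depths of 9374 and 9034. *Notch3* was detected in 1.51% and 1.68% of the hematopoietic cells (*Ptprc* detected, median depths 3716 and 3994 UMIs), which are shallower than the mural cells. Among connective cells with 0 UMIs of the 4 markers, at median depths of 11785 and 14241 UMIs, the shares were 6.38% and 6.50%. The share of detection due to free RNA was not estimated.

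Levels, given as CPM (UMIs of the gene per 1000000 UMIs of the pooled cells), differed in the same way for other genes that the rule did not use. *Cox4i2*, a cytochrome oxidase subunit isoform at chr2:152754173-152765037, was at 161 CPM in control and 176 CPM in *Smo* cKO cells with 10 or more marker UMIs, and at 15.3 and 9.67 CPM in those with 5 to 9. The decorin gene *Dcn*, typical of fibroblasts, went the other way, from 426 and 949 CPM with 10 or more marker UMIs to 2443 and 2642 CPM with 5 to 9. *Pdgfra*, the fibroblast PDGF receptor, was detected in 11 of 53 and 12 of 46 cells of the first kind and in 11 of 17 and 14 of 22 of the second. *Pdgfrb* was at 274 and 299 CPM against 148 and 168 CPM. *Rgs5* supplied most of the marker UMIs, so its own levels in the 2 sets (2292 and 2600.2 CPM against 138 and 142 CPM) follow from the split. Cells just under the threshold, with 3 or 4 marker UMIs, had *Dcn* at 2144 and 2236 CPM.

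The cells with 5 to 9 marker UMIs, 24.3% of the control gate and 32.4% of the *Smo* cKO gate, were mixed. Of these, 11 of 17 in control and 13 of 22 in *Smo* cKO had 0 *Rgs5*, and most of those passed mainly through *Abcc9*. A control cell of 14652 UMIs and a *Smo* cKO cell of 8261 UMIs held more *Kcnj8* than *Abcc9*. In the whole set with 5 to 9 marker UMIs, 13 of 17 and 20 of 22 cells held more *Dcn* than *Rgs5* UMIs. Others were shallow, since the split is on raw UMIs. Control cells of 529, 1092 and 1963 UMIs held 5, 3 and 5 UMIs of *Rgs5* and 0, 1 and 0 of *Dcn*. In the set with 10 or more marker UMIs, 6 of 53 control and 10 of 46 *Smo* cKO cells likewise held more *Dcn* than *Rgs5*, and 1 cell of each library had 0 UMIs of both *Rgs5* and *Notch3*. With 5 to 9 marker UMIs, 11 of 17 control and 11 of 22 *Smo* cKO cells had 0 UMIs of both genes. Results below are for all 138 cells, for which mural is the name of the gate and not a shown identity of each cell. Some values for the 99 cells with 10 or more marker UMIs are added.

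**Figure D2:**
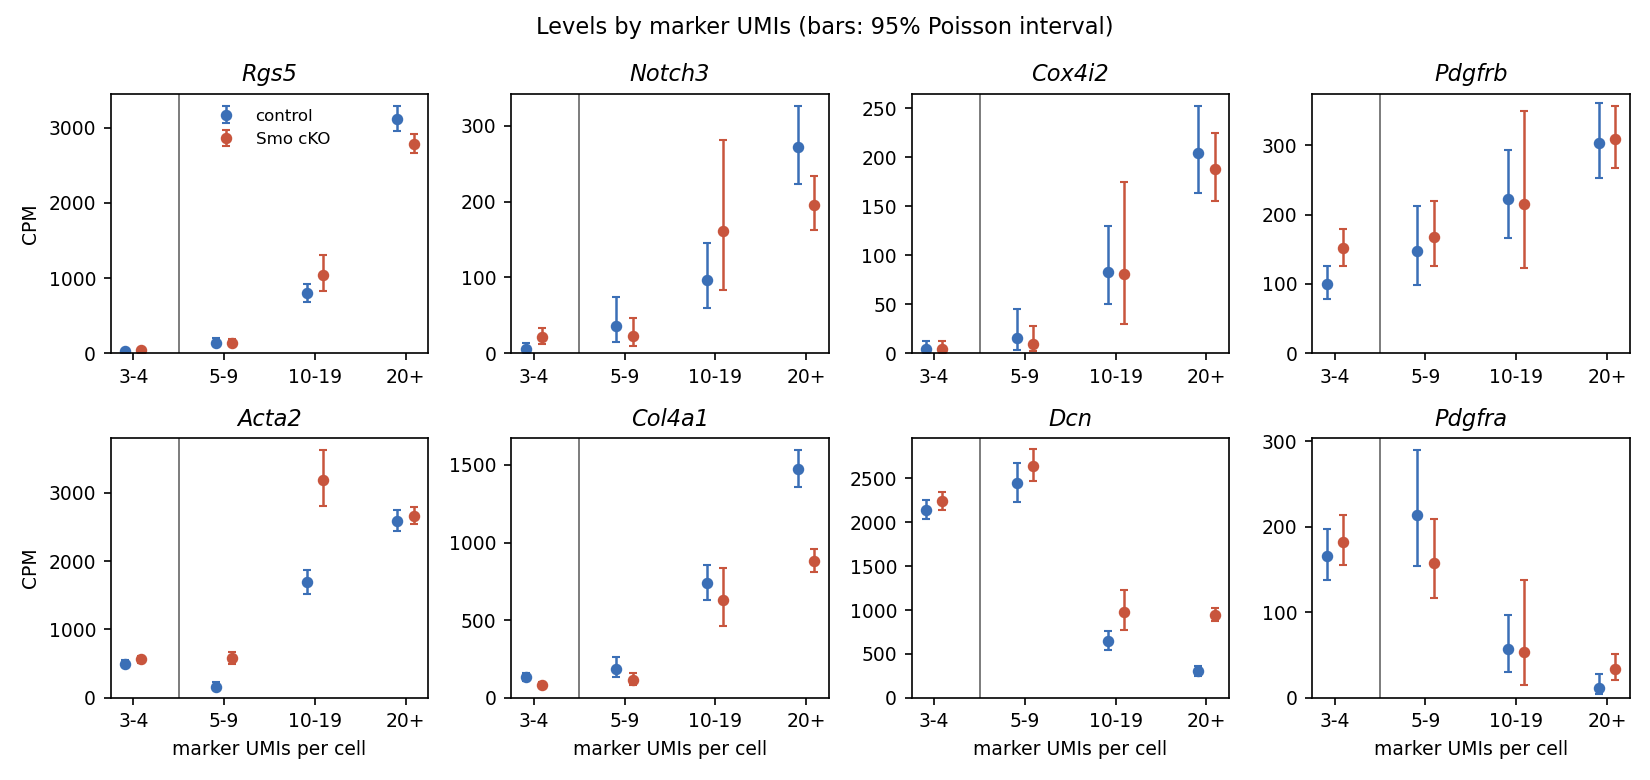
Level (CPM, linear axes from 0) of 8 genes in cells grouped by their summed marker UMIs, for control (blue) and Smo cKO (red), with bars for the 95% exact Poisson interval and a vertical line at the threshold of 5 UMIs. Rgs5 is part of the sum and rises with it by construction, while Notch3, Cox4i2 and Col4a1, which are not, were higher from 10 UMIs up, where Dcn and Pdgfra were lower than in the cells with 3 to 9.

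The mural cells were next set against other cells of the same callus. Connective tissue cells (0 UMIs of the 4 markers and of the 4 excluded genes, at least 5 UMIs of *Pdgfra*, *Dcn* and *Prrx1*) numbered 4546 in control and 3494 in *Smo* cKO. Endothelial cells (at least 3 UMIs of *Pecam1* and *Cdh5*, 0 of *Ptprc* and *Myog*) numbered 60 and 52. Hematopoietic cells (*Ptprc* detected, 0 UMIs of *Pecam1*, *Cdh5* and *Myog*) numbered 1259 and 1366. Both of these sets were limited to cells with under 5 UMIs summed over the 4 markers. Of the 2210 genes at 50 CPM or more in the mural cells of both libraries, 17 (0.769%) were at least 4-fold over both the connective and the endothelial cells in both libraries, with 10 CPM added to each side. Of these, *Rgs5*, *Abcc9*, *Kcnj8* and *Higd1b* chose the cells, and the connective gate holds 0 of them by construction. Their low levels in endothelial and hematopoietic cells are partly set by the limit of under 5 UMIs. The other 13 were *Ppp1r14a*, *Notch3*, *Cox4i2*, *Ccl11*, *Serpine2*, *Mylk*, *Itga1*, *Actg2*, *Ednrb*, *Rgs4*, *Ednra*, *Gm13889* and *Des*.

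Part of this group belongs to the machinery of contraction. *Ppp1r14a*, which encodes the myosin phosphatase inhibitor CPI-17, was at 156 CPM in control and 174 CPM in *Smo* cKO, against 1.37 and 2.89 CPM in connective cells. *Mylk*, the myosin light chain kinase, was at 227 and 318 CPM, against 21.5 and 23.4 CPM. Desmin (*Des*), the muscle intermediate filament, was at 226 and 173 CPM, against 23.5 and 34.9 CPM. The receptors for endothelin stood out as well. *Ednra* was at 95.05 and 92.2 CPM in mural cells and at 13.97 and 14.03 CPM in connective cells. *Ednrb* was at 144 and 118 CPM in mural cells against 1.13 and 0.848 CPM in connective and 11.5 and 17.7 CPM in endothelial cells, but was detected in 10.8% and 9.52% of hematopoietic cells. In the mural cells *Ednrb* was detected in 55.7% of control and 38.2% of *Smo* cKO cells.

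The eosinophil chemokine *Ccl11* was at 119 and 131 CPM in mural cells, 10.3 and 10.9 CPM in connective cells, with no UMI in the 60 and 52 endothelial cells. The protease inhibitor gene *Serpine2* (nexin-1) was at 569 and 661 CPM against 84.7 and 93.4 CPM in connective cells. Integrin alpha 1 (*Itga1*), which pairs with beta 1 to bind collagen and laminin, was at 198 and 155 CPM against 5.30 and 5.07 CPM. *Rgs4*, a second regulator of G-protein signaling, was at 141 and 127 CPM against 16.8 and 20.8 CPM.

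**Figure D3:**
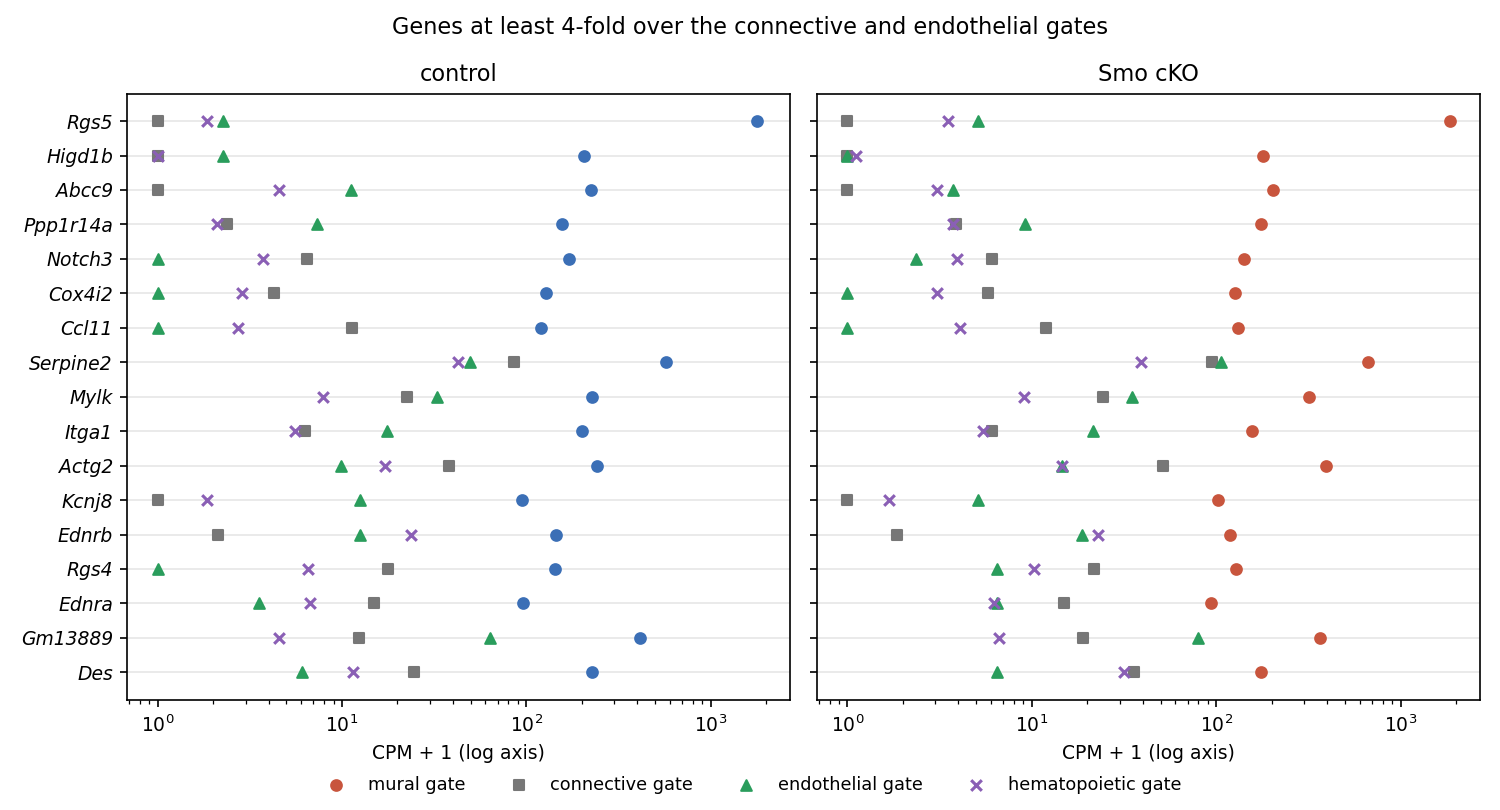
Level (CPM plus 1, log axes) of the 17 genes at least 4-fold over connective and endothelial cells in both libraries, in mural (circles), connective (squares), endothelial (triangles) and hematopoietic (crosses) cells of control (left) and Smo cKO (right). The mural circle lies to the right of every other symbol in each line, and Rgs5, Abcc9, Kcnj8 and Higd1b are at 0 in connective cells because the gate was set so.

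The 28 genes of the pericyte list, which holds none of the 4 gate markers, summed to 2996 CPM in control and 3028 CPM in *Smo* cKO mural cells, a log2 ratio of 0.02 (95% counting interval -0.06 to 0.09), against 648 and 689 CPM in connective cells. The direction of this ratio turned with the setting, since it was -0.64 (-0.90 to -0.39) in the 24 and 9 cells with at most 2000 genes and -0.21 with each cell weighted equally, but 0.22 without cells with any *Pdgfra* UMI. Of the 2474 genes with a mean of at least 50 CPM over both libraries, 43 (1.74%) were at least 2-fold higher in *Smo* cKO and 16 (0.647%) at least 2-fold lower. With the scale set by a total without mitochondrial, ribosomal protein and hemoglobin genes, which lowered every log2 ratio by 0.07, these counts became 34 and 22. Of the 16 pericyte genes that passed this level filter, 1 was higher by 2-fold and 0 lower, and the median log2 ratio of the 16 was -0.14 beside 0.04 for all 2474 genes. In the 99 cells with 10 or more marker UMIs, 49 of 2527 genes (1.94%) rose by 2-fold or more and 18 (0.712%) fell. There the pericyte list summed to 3567 and 3833 CPM (log2 0.10, 0.02 to 0.18), and 2 of its 19 genes at the filter were higher, *Gucy1a1* and the Notch target *Heyl*. In all cells the gene that rose was *Gucy1a1*, a subunit of the nitric oxide receptor soluble guanylate cyclase, from 28 to 92 UMIs (33.3 to 91.2 CPM, log2 1.45, 0.83 to 2.12). *Gucy1a1* had the same log2 ratio in cells with 10 or more marker UMIs and was detected in 19 control and 34 *Smo* cKO cells. Its partner subunit *Gucy1b1* was at 41.6 and 42.6 CPM, a log2 ratio of 0.04 (-0.64 to 0.72).

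The PDGF and Notch receptors that hold mural cells to vessels were at like levels. *Pdgfrb* was at 245 CPM in control (212 to 281) and 259 CPM in *Smo* cKO (228 to 292), and *Notch3* at 169 CPM (142 to 199) and 139.8 CPM (118 to 165), with overlapping intervals for each gene. *Cspg4*, which encodes the NG2 proteoglycan, was at 60.6 and 36.7 CPM, and the metalloreductase gene *Steap4* at 93.9 and 54.5 CPM, neither past 2-fold. Without the 2 cells with the most UMIs of the gene in each library, *Steap4* passed 2-fold (log2 -1.06, -1.65 to -0.48), while *Cspg4* had a log2 ratio of -0.78. *Ndufa4l2*, a subunit homolog of the respiratory chain induced by hypoxia, was at 280.4 and 343 CPM in mural cells and at 38.2 and 106 CPM in connective cells. Vitronectin (*Vtn*), an adhesive glycoprotein, went from 14 to 55 UMIs (log2 1.71, 0.85 to 2.67) but stayed under the mean of 50 CPM used for calls.

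Of the 14 Notch pathway genes, 5 passed the level filter in all mural cells, and 1 rose, beside 1.74% of all genes. In the cells with 10 or more marker UMIs, 6 passed and 2 rose, *Hes1* and *Heyl*, beside 1.94% of all genes. *Hes1*, a transcriptional repressor induced by Notch and by other signals, went from 29 to 100 UMIs (34.5 to 99.1 CPM, log2 1.52, 0.92 to 2.17), and its log2 ratio in connective cells was 1.36. *Nrarp*, a feedback inhibitor of Notch, was at 48.7 and 56.5 CPM in mural cells and at 0.0959 and 0.361 CPM in connective cells. *Heyl*, a Notch target of mural cells, was at 35.6 and 55.5 CPM in all mural cells, and rose from 34.1 to 75.9 CPM (log2 1.16) in those with 10 or more marker UMIs. The list summed to 481 and 533 CPM, a log2 ratio of 0.15, and 0.23 in that narrower set.

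In the list of 32 PDGF, TGF-beta and other vascular signaling genes, 12 passed the filter. Of these, 0 rose and 1 fell, beside 1.74% higher and 0.647% lower of all 2474 genes. The list's log2 ratio was -0.15 (-0.25 to -0.05), and -0.02 (-0.13 to 0.10) with 10 or more marker UMIs. *Cxcl12*, the chemokine ligand of CXCR4, fell from 191 UMIs in 25 cells of the control to 67 UMIs in 28 cells of the *Smo* cKO (227 to 66.4 CPM, log2 -1.77, -2.20 to -1.36). In control, 85 of the 191 UMIs came from 2 cells, and without the 2 cells with the most UMIs in each library the log2 ratio was -1.30 (-1.82 to -0.80). The second of these control cells, of 6518 UMIs with 42 of *Cxcl12*, had 0 UMIs of *Rgs5* and *Notch3* and 12 of *Dcn*. In cells with 10 or more marker UMIs the log2 ratio of *Cxcl12* was -1.29. In connective cells the log2 ratio of *Cxcl12* was -0.53, and in endothelial cells -0.25. *Flt1*, the VEGF receptor found on endothelium, was at 79.6 and 69.4 CPM in mural cells. Of 20 genes for potassium channels, cyclic GMP and G-protein regulation, 7 passed the level filter, of which *Rgs5*, *Abcc9* and *Kcnj8* had chosen the cells. Of the remaining 4, *Gucy1a1*, already counted in the pericyte list, was the 1 that passed 2-fold, beside 1.74% of all genes. *Pde3a* and *Pde5a*, which break down cyclic nucleotides, were at 87.9 and 60.5 CPM and at 46.3 and 31.7 CPM. Of the 21 vascular transcription factors, 5 passed the filter and 0 passed 2-fold in either direction, with a summed log2 ratio of 0.13, or 0.22 with 10 or more marker UMIs. Among them *Nr2f2*, the venous nuclear receptor COUP-TFII, was at 91.5 CPM in control and 139.8 CPM in *Smo* cKO, against 11.6 and 13.3 CPM in connective cells, and *Ebf1* was at 406 and 457 CPM.

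Contractile genes varied widely from cell to cell. The summed level of *Acta2*, *Tagln*, *Myh11*, *Cnn1* and *Myl9*, the core of the smooth muscle apparatus, had a median of 13.0 per 10000 UMIs in control cells (0 to 161) and 22.6 in *Smo* cKO cells (0 to 340), and both ranges started at 0. With each cell thinned to 2000 UMIs the medians were 15 and 25. The connective cells had medians of 5.35 and 11.5, so that the level was higher in the *Smo* cKO library in both kinds of cell. At least 2 UMIs of *Myh11*, the smooth muscle myosin heavy chain, were found in 7 of 70 cells in control (10%, 4.12% to 19.5%) and 15 of 68 in *Smo* cKO (22.1%, 12.9% to 33.8%), and the intervals overlapped. The share was 1 of 4546 and 1 of 3494 in connective cells, and 0 of 1259 (which allows up to 0.238% by a limit of 3 counts, or 0.293% by the upper Clopper-Pearson bound) and 1 of 1366 in hematopoietic cells. After thinning to 2000 UMIs it was 0 of 64 (up to 4.69% and 5.60% by the same limits) and 2 of 67, too few to compare at that depth.

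**Figure D4:**
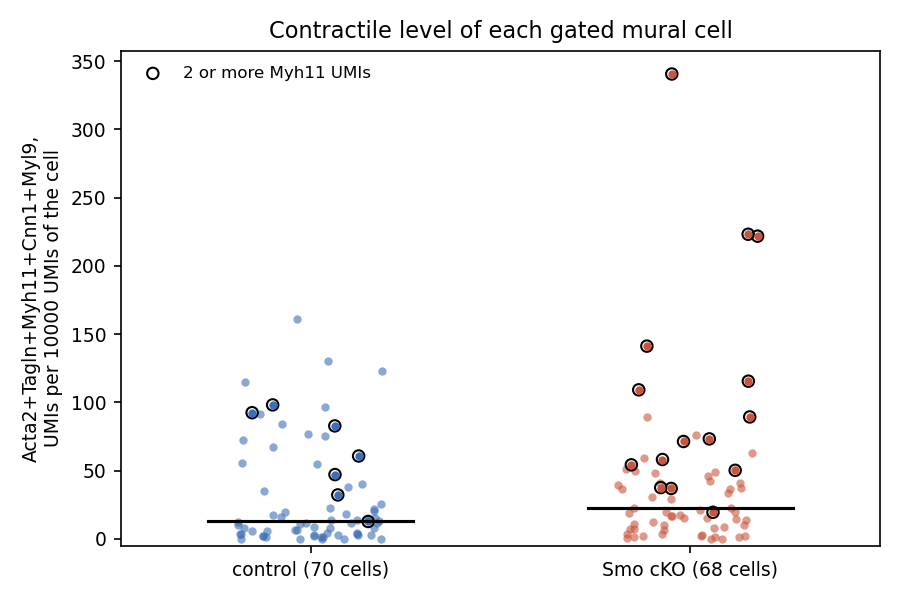
Summed Acta2, Tagln, Myh11, Cnn1 and Myl9 UMIs per 10000 UMIs of the cell (linear axis) in each of the 70 control and 68 Smo cKO mural cells, with black bars at the medians of 13.0 and 22.6. Circled cells held at least 2 UMIs of Myh11, 7 in control and 15 in Smo cKO, and they reach 340 in Smo cKO.

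As a pool, cells with at least 2 *Myh11* UMIs carried more *Acta2*, *Actg2* and *Mustn1* than cells with none. In control the *Rgs5* levels of these sets were alike. Cells between the sets were left out, and the sets, split on raw UMIs, were not matched for depth. The 7 control cells with at least 2 *Myh11* UMIs were uneven, with 6 to 95 UMIs of *Acta2* each. Among cells with 10 or more marker UMIs, *Acta2* was at 3123 CPM in the 7 control cells with at least 2 *Myh11* UMIs and at 1207 CPM in the 32 with none. In *Smo* cKO it was at 5734 CPM in 14 such cells and at 1733 CPM in the 23 with none. *Actg2*, the gamma smooth muscle actin, was at 539 against 89.5 CPM in control and at 1434 against 189 CPM in *Smo* cKO. *Mustn1*, a small nuclear protein of the musculoskeletal system, was at 431 against 121 CPM and at 965 against 123 CPM. *Rgs5* was at 2046 against 2146 CPM in control and at 3559 against 1856 CPM in *Smo* cKO, where the cells with *Myh11* therefore had the higher marker level. *Kcnj8* was at 23.9 against 124 CPM in control and at 123 against 107 CPM in *Smo* cKO.

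Across the whole list of 21 contractile genes, the sum was 6747 CPM in control and 7674 CPM in *Smo* cKO mural cells, a log2 ratio of 0.19 (0.14 to 0.24) beside 0.40 in connective cells and 0.23 in mural cells with 10 or more marker UMIs. Of the 12 that passed the level filter, 0 passed 2-fold in either direction. The nearest were *Mustn1*, from 140 to 289 UMIs (log2 0.78, 0.49 to 1.09), and *Actg2*, from 203 to 395 UMIs (log2 0.70, 0.45 to 0.95). This depended on the setting, since over those tried *Mustn1* ran from 0.69 to 1.90, *Actg2* from 0.63 to 3.29 and *Acta2* from 0.14 to 1.19. *Acta2* was at 1776 CPM (1687 to 1869) and 2063 CPM (1975 to 2153), and *Tagln*, transgelin, at 986 and 993 CPM. Calponin (*Cnn1*), under the filter, went from 12 to 61 UMIs (log2 2.08, 1.18 to 3.11), with 20 of these 61 in 2 *Smo* cKO cells.

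Mural cells held more collagen IV transcript than connective cells. *Col4a1*, which with *Col4a2* encodes the collagen IV network, was at 974 CPM in control and 626 CPM in *Smo* cKO mural cells, against 53.2 and 37.7 CPM in connective cells. Its log2 ratio between genotypes was -0.64 (-0.79 to -0.49) in mural, -0.50 in connective and -0.77 in endothelial cells, so that the value was below 0 in all of them. *Col4a2* was at 579 and 442 CPM, *Col15a1* at 361 and 249.8 CPM, and *Col18a1*, the endostatin precursor, at 393 and 258 CPM. *Nid1*, the linker protein nidogen, was at 307 and 228 CPM. None of the 10 basement membrane genes at the level filter passed 2-fold in all mural cells, and their median log2 ratio was -0.41 beside 0.04 for all genes. Over the settings tried, *Col4a1* ran from -1.72 to -0.41 and *Col4a2* from -1.25 to -0.17, so both were past 2-fold lower in some of them. The summed list was at 11413 and 12155 CPM, with a log2 ratio of the opposite sign (0.09, and 0.14 with 10 or more marker UMIs), because most of the sum was *Sparc*, a collagen-binding glycoprotein at 8214 and 9842 CPM.

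Of the 20 interstitial matrix genes, all passed the filter, 1 rose and 0 fell, beside 1.74% higher and 0.647% lower of all genes. The sum was 38534 and 38157 CPM (log2 -0.01, -0.04 to 0.01). In the cells with 10 or more marker UMIs the sum was 32841 and 34151 CPM, with a log2 ratio of the opposite sign (0.06, 0.03 to 0.08). The gene that rose was *Eln*, elastin, the core of elastic fibers. *Eln* went from 102 UMIs in 34 control cells to 447 UMIs in 47 *Smo* cKO cells (121 to 443 CPM, log2 1.87, 1.56 to 2.20). Its log2 ratio was 1.89 without the 2 cells with the most *Eln* in each library and 1.64 in cells with 10 or more marker UMIs. With the marker minimum lowered to 3 UMIs it was 0.66, under 2-fold, and in the 24 and 9 cells with at most 2000 genes it was 3.25. In connective cells *Eln* was at 277 and 301 CPM, a log2 ratio of 0.12, and in endothelial cells the log2 ratio was 1.13. *Dcn* rose as well with 10 or more marker UMIs, where 2 of the 20 genes rose, beside 1.94% of all genes. Of the fibrillar collagens, *Col1a1* and *Col3a1* had log2 ratios of -0.04 and -0.04, and *Col5a1* went from 950.5 to 743 CPM (log2 -0.35, -0.50 to -0.21). *Fbn1*, fibrillin 1, was at 562 and 395 CPM.

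Fibroblast transcripts differed within the gate. The 12 genes of the connective list summed to 3001 CPM in control and 4482 CPM in *Smo* cKO mural cells (log2 0.58, 0.51 to 0.65). The list's log2 ratio was 0.14 in connective, 0.77 (0.63 to 0.92) in endothelial and -0.15 in hematopoietic cells. Of the 8 genes that passed the filter in mural cells, 0 passed 2-fold, with a median log2 ratio of 0.68. *Dcn* was at 896 and 1470.1 CPM, *Lum*, which encodes lumican, at 266 and 433 CPM, and *Mfap5*, a microfibril protein, at 416 and 790.1 CPM. In cells with 10 or more marker UMIs *Dcn* was the 1 of 7 genes at the filter that rose (log2 1.16), beside 1.94% of all genes. The list's log2 ratio there was 0.70. The defining receptor *Pdgfra* was at 71.3 and 73.4 CPM and was detected in 22 control (31.4%) and 26 *Smo* cKO (38.2%) cells. The part of these connective transcripts in the other differences was not tested.

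Among genes with a mean of at least 100 CPM, the highest ratios of *Smo* cKO to control were led by interferon-induced genes. This ranking left out *Xist*, *Tsix*, Y-linked, mitochondrial, ribosomal protein, hemoglobin and immunoglobulin genes. *Isg15*, a ubiquitin-like protein induced by type I interferon, went from 7 UMIs in 7 control cells to 241 UMIs in 38 *Smo* cKO cells (8.32 to 239 CPM, log2 4.84, 3.78 to 6.17). *Ifi27l2a*, an interferon-induced mitochondrial protein, had a log2 ratio of 3.11 (2.49 to 3.80), *Bst2*, the antiviral tetherin, 2.22 (1.76 to 2.71), and *B2m*, the light chain of MHC class I, 1.36. The other 6 were *Hspa1a*, an inducible heat shock protein, at 2.13, *Eln* at 1.87, the matricellular CCN genes *Cyr61* at 1.45 and *Wisp2* at 1.43, the antiproliferative *Btg2* at 1.38 and the BMP-responsive *Id3* at 1.30. The log2 ratios in connective cells were lower than these for *Wisp2* (0.34), *Btg2* (0.77) and *Id3* (0.83), and were close to the mural value for *Bst2* (2.41) and *B2m* (1.23). With the marker minimum at 3 UMIs, *Eln*, *Cyr61* (0.69), *Wisp2* (0.80), *Btg2* (0.65) and *Id3* (0.88) were under 2-fold, and *Id3* was also under it with each cell weighted equally (0.90). Among the 24 and 9 cells with at most 2000 genes, *Ifi27l2a* (-0.32), *Hspa1a* (-0.056), *Cyr61* (-0.13), *Btg2* (0.71) and *Id3* (0.73) were not past 2-fold higher, and *Isg15* was at 1.68.

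With hemoglobin genes and the other classes named above left out, the lowest ratios after *Cxcl12* were those of *S100a4*, *Il1r1* and *Cd44*. They were -1.33 for *S100a4*, a calcium-binding protein of motile cells, -1.04 for *Il1r1*, the interleukin-1 receptor, and -1.03 for *Cd44*, the hyaluronan receptor. *S100a4* fell from 183 to 87 UMIs, but 64 of the 183 were in 1 control cell, and without the 2 cells with the most UMIs in each library its log2 ratio was -0.94. *Cd44* fell from 301 to 177 UMIs, with -0.16 in connective cells. At a marker minimum of 3 UMIs, *S100a4* (-0.38), *Il1r1* (-0.86) and *Cd44* (-0.48) were short of 2-fold. *Il1r1* was also short of it without cells with any *Pdgfra* UMI (-0.68), without barcodes in both libraries (-0.85), with each cell weighted equally (-0.92) and, like *Cd44* (-0.85), in cells with at most 2000 genes (-0.097). The other 6, which did not reach 2-fold, were *Ptx3* (-0.97, which passes 2-fold with either of the other scales), *Cxcl5* (-0.88), *Col27a1* (-0.75), *Cav1* (-0.74), *Bach1* (-0.73) and *Plec* (-0.72). Over the settings tried, *Cxcl5* ran from -3.19 to -0.52 and *Col27a1* from -1.65 to -0.056, so these also passed 2-fold in some of them.

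**Figure D5:**
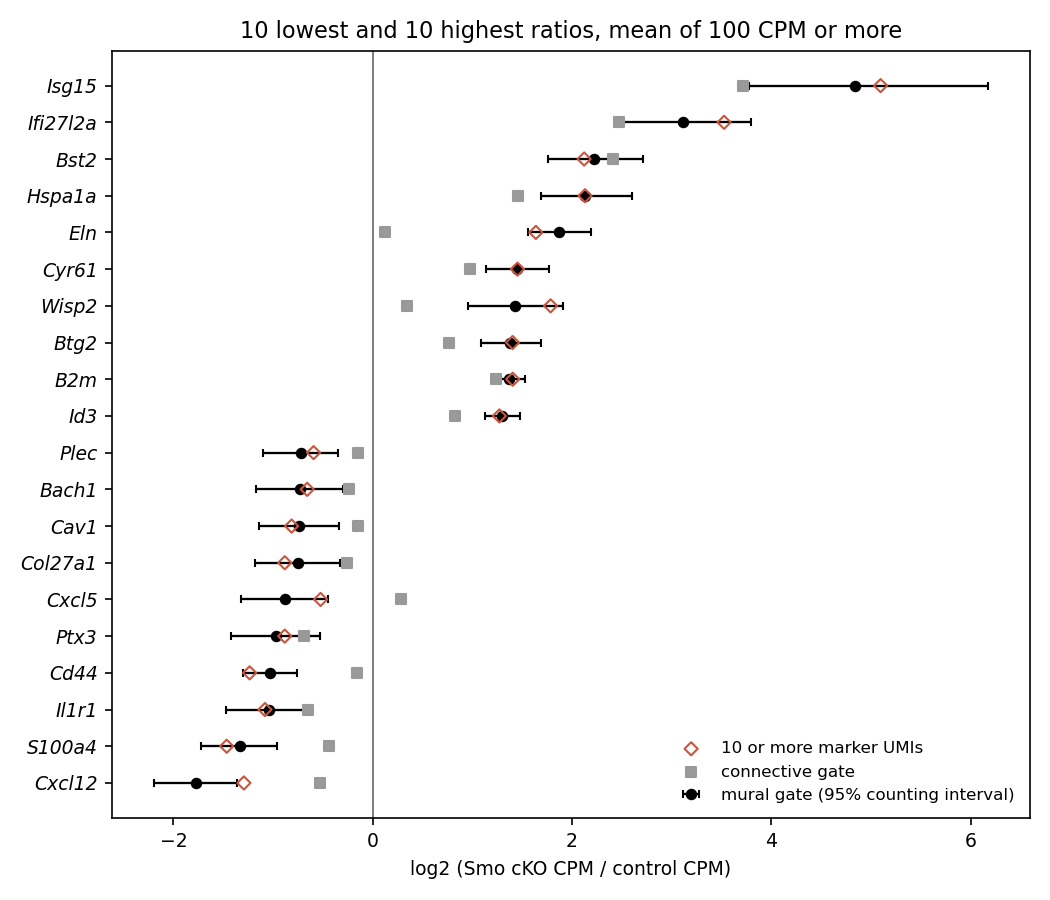
Log2 ratio of Smo cKO to control CPM (linear axis) for the 10 highest and 10 lowest genes with a mean of at least 100 CPM in mural cells. Xist, Tsix, Y-linked, mitochondrial, ribosomal protein, hemoglobin and immunoglobulin genes were left out. Filled circles with bars are all mural cells with the 95% counting interval, open diamonds are the cells with 10 or more marker UMIs, and squares are connective cells, which lie near 0 for Eln (0.12) and Cd44 (-0.16) and near the mural value for Bst2 (2.41).

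The 23 genes of the interferon list summed to 1522 CPM in control and 3726 CPM in *Smo* cKO mural cells, a log2 ratio of 1.29 (1.2 to 1.38), and 1.37 with 10 or more marker UMIs. The difference was not confined to mural cells. The list's log2 ratio was 1.01 in connective, 1.42 in endothelial and 1.21 in hematopoietic cells. Library, animal and genotype cannot be told apart as its source. Of the 4 genes at the level filter, 3 rose, beside 1.74% of all genes, and the fourth, *Ifitm3*, was at 1265 and 2502 CPM (log2 0.98). In the cells with 10 or more marker UMIs *Ifitm3* had a log2 ratio of 1.05, and all 4 rose, beside 1.94% of all genes. *Ifi27* rose from 91 to 244 UMIs (log2 1.16). Under the filter, *Irf7*, the interferon regulatory factor, went from 1 to 54 UMIs (log2 5.49, 2.95 to 10.82), and *Rtp4* from 2 to 63 (log2 4.72, 2.80 to 7.79). *Ifit3* went from 0 to 29 UMIs and *Ifi44* from 0 to 19, at least 8.07-fold and at least 5.28-fold higher when the 0 is set to 3 counts.

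The promoters of the interferon list were read from RefSeq (GRCm38.p6, 250 bases before to 50 after each start) and searched on both strands for the letters GAAA, any 2 bases and GAAA again, the core of the interferon-stimulated response element. It was present in 10 of the 18 interferon-list genes that matched a promoter and in 3.99% of the 27025 gene symbols with a promoter. Stretches of 30 bases from the promoters of *Isg15* and *Bst2*, which had the 2 highest ratios of the list among the genes at the level filter and both hold the motif, are shown 5′ to 3′ on the minus strand, with the overlapping matches in capitals, 3 in *Isg15* at chr4:156200871-156200900 and 2 in *Bst2* at chr8:71537580-71537609.
Isg15: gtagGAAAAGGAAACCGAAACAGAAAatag
Bst2: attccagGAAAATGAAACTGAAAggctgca
A match is a description of the letters only. The CArG box, the element bound by serum response factor, was found in the same window in 1 of the 15 contractile genes that matched a promoter, that of *Myl9*, and in 1.81% of all symbols.

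Of 16 immediate early and heat shock genes, 15 passed the filter, 3 rose and 0 fell, beside 1.74% higher and 0.647% lower of all 2474 genes, and their median log2 ratio was 0.63 beside 0.04. With either of the other scales, which lowered every log2 ratio by 0.04 or 0.07, 1 of the 15 (*Hspa1a*) passed 2-fold. The 3 were *Hspa1a*, from 50 to 263 UMIs, *Hspa1b*, from 29 to 70 UMIs (log2 1.01), and the stress-response transcription factor *Atf3*, from 70 to 168 UMIs (log2 1.00). *Fos* was at 421 and 759 CPM and *Jun* at 429 and 733 CPM, under 2-fold. In the cells with 10 or more marker UMIs 4 of 15 rose, beside 1.94% of all genes, among them the zinc finger factor *Egr1* (log2 1.09). The summed list was at 4419.6 and 5978 CPM in mural cells, with log2 ratios of 0.44 in mural cells, 0.49 in those with 10 or more marker UMIs and 0.32 in connective cells.

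Of the 21 inflammatory genes, 14 passed the filter, 0 rose and 1 fell, beside 1.74% higher and 0.647% lower of all genes. The list's log2 ratio was 0.14, or 0.31 in the cells with 10 or more marker UMIs, where 0 of 11 passed 2-fold. *Saa3*, an acute phase serum amyloid, fell from 107 UMIs in 13 control cells to 7 UMIs in 6 *Smo* cKO cells (127 to 6.94 CPM, log2 -4.20, -5.54 to -3.10), with -1.25 in connective cells. When cells with any *Pdgfra* UMI were left out, its log2 ratio was 1.59 (-2.05 to 7.31), so the fall of *Saa3* rested on cells that also carried the fibroblast receptor. The monocyte chemokines *Ccl2* and *Ccl7* were at 1234 and 1210.3 CPM and at 1124 and 955 CPM in mural cells, while *Ccl2* went from 1211 to 2184 CPM in connective cells. *Ccl19*, the CCR7 ligand of lymphoid stroma, went from 1 UMI to 64 UMIs in 16 cells (log2 5.74, 3.21 to 11.06) and had a log2 ratio of 0.05 in connective cells. *Cxcl10*, an interferon-inducible chemokine, went from 15 to 74 UMIs (log2 2.04) and had a log2 ratio of 1.79 in connective cells.

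The 18 cell cycle genes summed to 480.0 and 724 CPM (log2 0.59, 0.41 to 0.77) with 0.11 in connective cells, and 0 of the 2 at the level filter passed 2-fold. In the cells with 10 or more marker UMIs, 5 passed the filter and 1 rose, beside 1.94% of all genes. This was *Cenpf*, a kinetochore protein, from 16 to 53 UMIs (log2 1.61). *Ccnb1*, cyclin B1, went from 6 to 39 UMIs, and *Cenpf* from 17 to 59 UMIs, in all mural cells. *Mki67* was at 33.3 and 38.7 CPM. The glycolysis and hypoxia genes summed to 4094 and 3879 CPM (log2 -0.08) in mural cells and had a log2 ratio of 0.29 in connective cells, and 0 of the 13 at the filter passed 2-fold. In the cells with 10 or more marker UMIs they summed to 4323 and 3589.6 CPM (log2 -0.27, -0.35 to -0.19).

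Hedgehog pathway transcripts were sparse in mural cells. *Smo*, the targeted transducer, was at 18 UMIs in control and 14 UMIs in *Smo* cKO (21.4 and 13.9 CPM, log2 -0.62, -1.74 to 0.47), a difference that was not detectable at this depth, and reads from the gene do not show whether the floxed part was deleted. In connective cells it was at 18.98 and 12.2 CPM. *Ptch1*, the receptor and pathway target, was at 11 and 8 UMIs, and *Gli1*, a target of active signaling, at 4 and 2 UMIs. The ligands *Shh*, *Ihh* and *Dhh* and the target *Hhip* had 0 UMIs in both sets, which allows up to 3.56 CPM in control and 2.97 CPM in *Smo* cKO. *Gli3*, whose processed form is the main repressor of the pathway, was at 45.1 and 40.6 CPM, and the co-receptor *Gas1*, which passed the level filter, at 112 and 106 CPM. *Sox9*, whose regulatory sequence drives CreER, was at 13 and 26 UMIs, and the tdTomato reporter at 1 UMI in each library, beside 0.575 and 1.51 CPM in connective cells.

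Markers of other cells were low but not absent. The 14 endothelial genes summed to 221 CPM in control and 212 CPM in *Smo* cKO mural cells, against 3232 and 3197 CPM in endothelial cells. *Flt1* was the most abundant, and *Cldn5*, *Tek*, *Tie1* and *Robo4* were at 0 UMIs in both libraries, as *Pecam1* and *Cdh5* were by the rule. The 12 macrophage genes summed to 217 and 149 CPM against 6252 and 10602 CPM in hematopoietic cells, led by *Lyz2* at 64.2 and 66.4 CPM, with none of them at 0 in both libraries. With 10 or more marker UMIs they summed to 256 and 129 CPM (log2 -0.99). The 8 neutrophil genes summed to 30.9 and 58.5 CPM, led by *S100a8* at 14.3 and 41.6 CPM, with *Ly6g*, *Csf3r* and *Mmp8* at 0 UMIs. The 13 skeletal muscle genes summed to 38.0 and 21.8 CPM and the 8 Schwann cell genes to 27.3 and 30.7 CPM, with *Myf6*, *Myh4*, *Actn2*, *Sox10*, *Foxd3* and *Cdh19* at 0. The 11 skeletal lineage genes summed to 177 and 176 CPM, led by osteopontin (*Spp1*) at 82.0 and 82.3 CPM, against 638 and 765 CPM in connective cells, with *Col2a1* and *Bglap* at 0. With 10 or more marker UMIs they summed to 203 and 122 CPM (log2 -0.74, -1.15 to -0.33), and the skeletal muscle genes to 46.5 and 22.9 CPM. The part of RNA from these cells in the results was not tested.

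Hemoglobin genes were 4 of the 16 genes past 2-fold lower. They summed to 4725 CPM in control and 1115 CPM in *Smo* cKO mural cells (log2 -2.08), while connective cells had 1368 and 1855 CPM. *Hbb-bs*, an adult beta globin, was at 1699 and 560 UMIs, of which 2 control cells held 1589 and 2 *Smo* cKO cells 335. Without these cells *Hbb-bs* was at 133 and 228 CPM and its log2 ratio was 0.78, with the opposite sign. *Hba-a1* (0.78), *Hba-a2* (0.77) and *Hbb-bt* (0.20) also turned without the 2 cells with the most UMIs of each gene.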

How the data were processed

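Single-cell RNA was measured in 2 libraries, 1 per genotype. The deposited values were whole-number UMI counts of 31054 features for the barcodes the authors kept; the submitters' processing notes name Cell Ranger 3.0.2 and mm10. Library totals were 105367110 UMIs in control and 112700220 in *Smo* cKO. Of 21259 barcodes, 19564 passed the filters on genes and mitochondrial UMIs, and 0 columns were left unused. Counts were summed over the cells of a set in each library and given as CPM, with exact Poisson intervals, conditional binomial intervals for ratios and Clopper-Pearson intervals for shares, all at 95%, using Python 3.11.15, numpy 2.4.6, scipy 1.17.1 and pandas 2.3.3. With 1 library per genotype no test was run, and a call means past 2-fold at a mean of 50 CPM. Scrublet (scanpy 1.11.5) called 0 of 10057 and 2 of 9507 cells, too few to have worked, so doublets were not removed. The members and gene lists were chosen with earlier results of these data known. Beyond the lists, named genes were the 12 highest by the smaller fold over connective and endothelial cells, and the 10 highest and 10 lowest ratios at a mean of 100 CPM, leaving out *Xist*, *Tsix*, Y-linked, mitochondrial, ribosomal protein, hemoglobin and immunoglobulin genes. Coordinates are from GENCODE on GRCm38. The ratio and level intervals were tested on simulated pooled Poisson counts at the observed mean levels. The simulated counts held no spread between cells or animals, so this does not test the intervals against such spread. Alternatives in the marker minimum, gene and mitochondrial limits, scale, weighting, level filter, fold and depth were tried.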

Additional observations from a re-analysis of the deposited data

Results flagged for a closer look

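A few genes had opposite signs in mural and connective cells, each at least 1.2-fold from equal, and the difference between the cell types was not tested. *Mustn1* had a log2 ratio of *Smo* cKO to control of 0.78 in mural cells and -0.75 in connective cells, and *Des* had -0.38 against 0.57. *Cxcl5*, a neutrophil chemokine, had -0.88 against 0.28. The hemoglobin genes had -2.19 (*Hba-a1*), -2.07 (*Hba-a2*), -1.86 (*Hbb-bs*) and -3.38 (*Hbb-bt*) in mural cells and 0.44, 0.48, 0.40 and 0.58 in connective cells, with most of the mural *Hbb-bs* UMIs in 2 cells of each library. Without the 2 cells with the most UMIs of each gene, the mural ratios were 0.78, 0.77, 0.78 and 0.20, with the sign of the connective cells.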

How the results depend on the processing

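With 10 or more marker UMIs the mural share was 0.527% in control and 0.484% in *Smo* cKO, and the pericyte list summed to 3567 and 3833 CPM, with log2 ratios of 0.10 for it and 0.70 for the connective list. With 3 or more the shares were 1.26% and 1.36%, and the pericyte sums 2066 and 2153 CPM. At that minimum the connective and interferon log2 ratios were 0.29 and 1.12. The *Myh11* share in *Smo* cKO was 12.4%, and 18 of 2411 genes were 2-fold higher. Without cells with any *Pdgfra* UMI the shares were 0.477% and 0.442%, and the pericyte sums 4229 and 4911 CPM. The log2 ratios there were 0.22 (pericyte), 0.26 (contractile) and 0.68 (connective). Of 2537 genes, 77 were higher and 42 lower, and *Saa3* reversed to 1.59. With at most 2000 genes per cell, the study's limit, 24 control and 9 *Smo* cKO mural cells were left (0.568% and 0.233% of the cells). The pericyte sums were 6293 and 4031 CPM, and the log2 ratios -0.64 (pericyte), 0.92 (contractile) and 0.80 (interferon). The *Myh11* share in *Smo* cKO was 11.1%, and of 2595 genes 500 were higher and 283 lower. There *Cav1* (1.27), *Cyr61* (-0.13), *Hspa1a* (-0.056), *Ifi27l2a* (-0.32), *Plec* (0.0030) and *Sparc* (-0.18) changed sign. The gate marker *Rgs5*, at 0.04 in all mural cells, also changed sign there, and its lowest ratio over the settings was -0.03. With each cell weighted equally the pericyte levels were 4334 and 3735 CPM and the log2 ratios -0.21 (pericyte), 0.39 (contractile) and 0.77 (connective). With the total without mitochondrial, ribosomal protein and hemoglobin genes as scale the contractile and connective log2 ratios were 0.11 and 0.51. In an alternative chosen after seeing the data, without mural cells whose barcode was in the other library, the pericyte sum in *Smo* cKO was 3369 CPM and the log2 ratios were 0.13 (pericyte) and 0.65 (connective). In another, without the 2 cells with the most UMIs, *Hbb-bs* reversed to 0.78. Thinned to 2000 UMIs, the *Myh11* share was 0% in control and 2.99% in *Smo* cKO. At 1.5-fold 187 of 2474 genes were higher and 103 lower. At a mean of 200 CPM the counts were 8 and 5 of 617 genes, and with no level filter 2355 and 2054 of 14048. Without the mitochondrial limit and with the median-of-ratios scale, none of these shares, sums, ratios and counts moved beyond its counting interval, or 1.5 times for a count. The cause of these shifts was not tested. Leaving out Scrublet doublets was not run, since no mural cell was called. No paired analysis was possible because each genotype had 1 library. Depth limits genes under about 50 CPM, where a set held few UMIs.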

Other observations

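The genes below were picked after their values were seen. *Nts*, the neurotensin precursor, had 0 UMIs in control mural cells and 114 UMIs in 10 *Smo* cKO mural cells, at least 31.7-fold higher when the 0 is set to 3 counts, and 54 of the 114 were in 2 cells. In endothelial cells *Nts* was at 127 and 418 CPM, and in connective cells at 0.224 and 0.487 CPM. Complement *C3* went from 87 to 23 UMIs in mural cells (log2 -2.18, -2.91 to -1.50) with -1.53 in connective cells. *Sfrp4*, a secreted Wnt antagonist, went from 220 to 549 UMIs (log2 1.06) with 0.04 in connective cells, and its log2 ratio in mural cells with 10 or more marker UMIs was 0.55. The ribosomal protein gene *Rpl29* went from 120 to 1012 UMIs (log2 2.81). Its log2 ratio was 2.68 in connective, 2.66 in endothelial and 2.60 in hematopoietic cells, so the rise was not confined to mural cells. Library, animal and genotype cannot be told apart here either.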
